A study of Mus musculus with 35 samples.

Results

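The 9 genes described here encode subunits of the Polycomb complexes and the enzymes that remove their mark from histone H3: Ezh1, Ezh2, Eed, Suz12 and Jarid2 of Polycomb repressive complex PRC2, Ring1 and Rnf2 of PRC1, and the H3K27 demethylases Kdm6a and Kdm6b. They were chosen by name from what their proteins do, with earlier results of these data known. All 9 were among the 24480 genes of the deposited count table. RNA of 35 samples of wild-type mouse embryos of the strain C57BL/6NRj was sequenced, in 4 groups. Ctrl water zygotes (n = 10) were injected with nuclease-free water and Kdm5b zygotes (n = 10) with in vitro transcribed Kdm5b-yfp mRNA at about 1150 ng/µl, and each was collected as 1 embryo 17 h after ovulation. Ctrl water 2C samples (n = 9) and Kdm5b 2C samples (n = 6) were injected in the same way, but at the 2-cell stage, and were collected 5.5 to 8 h after division. KDM5B is a demethylase of H3K4me3, and YFP is a fluorescent tag.

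The groups limit what can be compared. Zygotes were used without freezing, whereas 2C embryos came from zygotes that had been cryopreserved and thawed, and the libraries of the 2 stages were made on different days, so stage, freezing and library day cannot be told apart. Of the 2C samples, 3 of the 9 Ctrl water and 1 of the 6 Kdm5b samples held single blastomeres pooled from 2 or 3 embryos. No group received a control mRNA, so an effect of KDM5B cannot be told apart from one of injected mRNA. The depth ranged from 8705584 to 17797581 counted fragments per sample. Kdm5b took 5.11% ± 2.59 of them in Kdm5b zygotes (SD, n = 10) and 11.9% ± 3.41 in Kdm5b 2C samples (SD, n = 6), and at most 0.0189% in any water-injected sample. The samples held RNA of oocyte genes throughout, with a summed level of 8 oocyte markers of 7705 to 10710 TPM (transcripts scaled to gene length and to the total of the sample) in zygotes and 3419 to 5938 TPM in 2C samples. The summed level of 11 cumulus cell markers, which would mark cells attached to the egg, was 11.8 to 46.1 TPM over all samples. Inha and Amh were at 0 in every 2C sample, but none of the 11 was at 0 throughout either zygote group. The median was under 1 TPM for 9 of the 11 in Ctrl water 2C samples and for 10 in each other group. The sum was 15.0 to 42.1 TPM in Ctrl water 2C samples and 11.8 to 34.4 TPM in Kdm5b 2C samples, and its part in the results below was not tested. No spike-in RNA was used, so every value is relative to the other RNA of the same sample.

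PRC2 places methyl groups on lysine 27 of histone H3. EZH2 or its paralog EZH1 is the catalytic subunit, EED binds the methylated histone tail and is needed for full activity, SUZ12 holds the complex together, and JARID2 is an accessory subunit that helps to bring the complex to its targets. PRC1 attaches ubiquitin to histone H2A through the E3 ligases RING1 (RING1A) or RNF2 (RING1B), and KDM6A (UTX) and KDM6B (JMJD3) remove methyl groups from H3K27. In mouse oocytes and early embryos H3K27me3 of maternal origin silences a set of imprinted genes.

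Fragments had been counted on the sense strand of RefSeq genes on GRCm38, and no exon of the 9 genes overlapped an exon of another gene. Suz12 lies on the plus strand of chromosome 11, from 79993106 to 80034123, and Eed on the minus strand of chromosome 7, from 89954654 to 89980976. Ezh2 lies on the minus strand of chromosome 6, from 47530274 to 47595030, and Ezh1 on the minus strand of chromosome 11, from 101191115 to 101226463. Jarid2 spans 44730774 to 44921643 on the plus strand of chromosome 13. Rnf2 spans 151469406 to 151500823 on the minus strand of chromosome 1, and Ring1 spans 34020792 to 34024680 on the minus strand of chromosome 17. Kdm6a spans 18162575 to 18279936 on the plus strand of chromosome X, and Kdm6b spans 69398508 to 69413675 on the minus strand of chromosome 11.

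The 250 bases upstream of the annotated RefSeq start site (GRCm38.p6) are shown for Suz12, Eed and Ezh2, subunits of one complex whose RNA levels moved in different directions or by different amounts between the stages. Capitals mark CpG dinucleotides, and each sequence runs 5′ to 3′ on the strand of its gene.
Suz12, chr11:79992856-79993105, plus strand: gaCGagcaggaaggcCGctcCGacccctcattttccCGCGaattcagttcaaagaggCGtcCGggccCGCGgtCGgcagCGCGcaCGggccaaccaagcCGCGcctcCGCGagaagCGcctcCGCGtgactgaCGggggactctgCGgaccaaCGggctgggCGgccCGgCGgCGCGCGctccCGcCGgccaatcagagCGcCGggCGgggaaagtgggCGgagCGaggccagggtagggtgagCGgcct
Eed, chr7:89980977-89981226, minus strand: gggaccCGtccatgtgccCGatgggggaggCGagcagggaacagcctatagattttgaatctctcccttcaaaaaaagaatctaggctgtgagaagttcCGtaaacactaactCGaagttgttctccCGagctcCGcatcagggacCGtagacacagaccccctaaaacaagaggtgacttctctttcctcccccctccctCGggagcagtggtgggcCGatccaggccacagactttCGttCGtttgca
Ezh2, chr6:47595031-47595280, minus strand: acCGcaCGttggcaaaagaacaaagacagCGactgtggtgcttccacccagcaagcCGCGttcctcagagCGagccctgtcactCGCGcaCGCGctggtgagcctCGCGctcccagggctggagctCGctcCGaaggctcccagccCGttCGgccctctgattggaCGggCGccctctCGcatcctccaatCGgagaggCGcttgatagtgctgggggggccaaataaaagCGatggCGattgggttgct
The Suz12 window held 37 CpGs, the Ezh2 window 23 and the Eed window 12, where the median over 32851 RefSeq windows of the same length was 6. A window was found for 8 of the 9 genes. Ring1 had 30 CpGs, Jarid2 23 and 22 in its 2 windows, Rnf2 20, Kdm6a 15 and Ezh1 14, so all 8 genes were above that median. The G and C content lay between 54.4% in Eed and 73.6% in Suz12 and Ring1, against a median of 52.4%. The Rnf2 start site lay 168 bases upstream of the gene start in the count annotation. In all, 5 short motifs were searched on both strands. TTTCCCGC, a form of the E2F site, occurred once, in Suz12, and in 0.895% of all windows. GGGCGG, the GC box, occurred in Suz12, Ring1, Rnf2, Jarid2 and Kdm6a and in 32.7% of all windows. CACGTG, an E-box, occurred in Kdm6a and in 6.02% of all windows. TTTGGCGC and CCGGAAGT occurred in none of the members' windows, and in 0.417% and 2.88% of all windows. These matches describe the letters and are no evidence of binding.

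Of the 9 genes, 8 were well measured, and Ring1 was close to absent. Levels are given as TPM, computed from the counts and the exon length of each gene, and can be compared between genes. Ezh2 RNA was the highest of the 9 in Ctrl water zygotes, with a median of 772 TPM (lowest 688, highest 879), above 99.1% of the genes with counts. Suz12 followed at a median of 571 TPM (516 to 659), and no Ctrl water zygote had a Suz12 level as high as the lowest Ezh2 level. Eed came next with a median of 351 TPM and Kdm6b with 308 TPM, and their ranges overlapped. Rnf2 at 204 TPM and Kdm6a at 182 TPM also overlapped, as did Jarid2 at 121 TPM and Ezh1 at 93.1 TPM. The order of the medians was the same in Kdm5b zygotes, where the ranges of Ezh2 and Suz12 overlapped. In 2C samples Suz12 was the highest, with medians of 1020 TPM in Ctrl water and 1011 TPM in Kdm5b samples, and Ezh2 the next, with 653 and 471 TPM. The ranges of Suz12 and Ezh2 overlapped in Ctrl water 2C samples and not in Kdm5b 2C samples. Eed ranked 3 of 9 in zygotes, 5 in Ctrl water 2C samples and 6 in Kdm5b 2C samples.

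**Figure D1:**
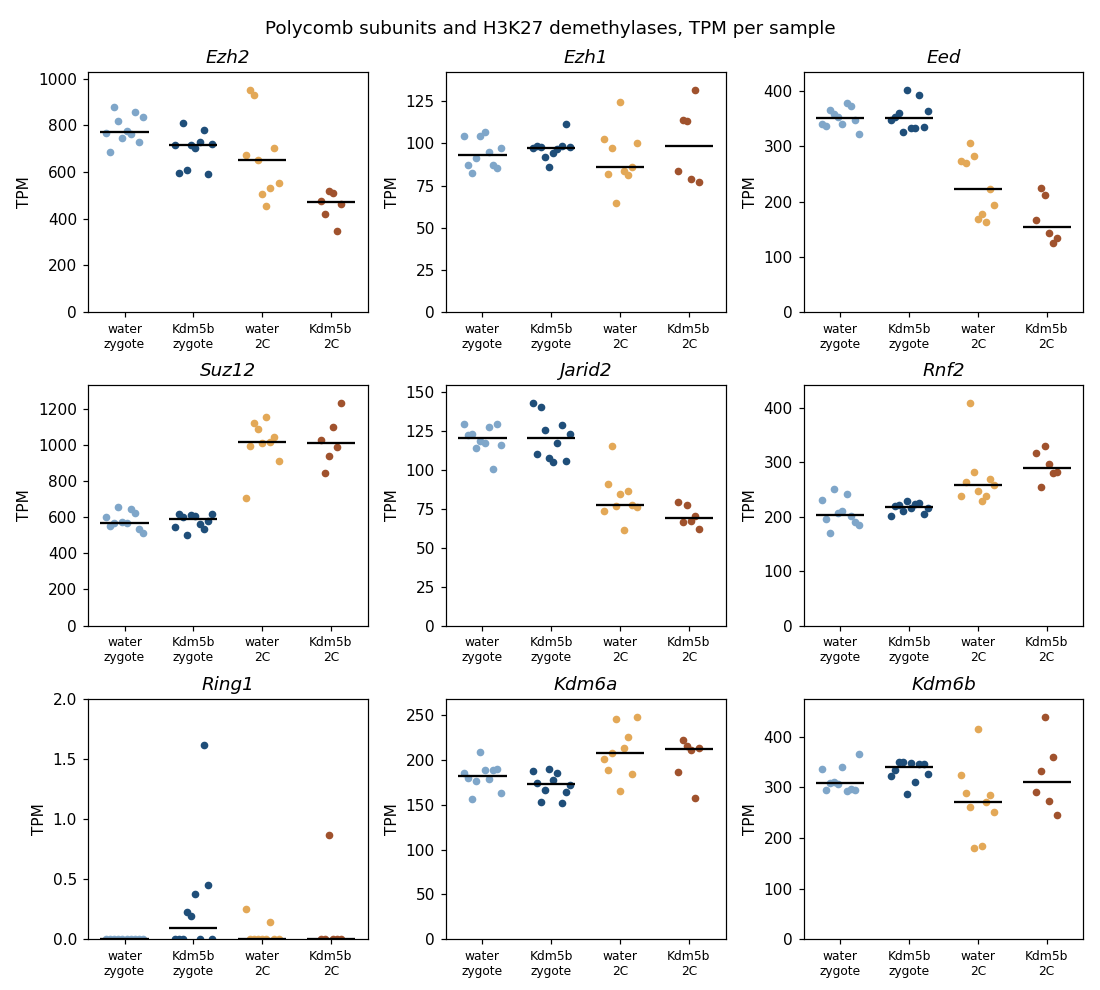
TPM of each of the 9 genes (vertical axes, linear from 0) in every sample of the 4 groups (horizontal axes). Points are samples and black lines group medians. Suz12 lay at 503 to 659 TPM in zygotes and at 709 to 1234 TPM in 2C samples, and Ring1 stayed at or below 1.62 TPM throughout.

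Ring1 had 33 fragments in all 35 samples together, against 108631 for its paralog Rnf2. It was at 0 in 27 samples, including all 10 Ctrl water zygotes. A count of 0 allows up to 3 fragments, which is 0.247 to 0.52 TPM depending on the sample, and this covers counting error only. The highest sample was a Kdm5b zygote with 12 fragments (1.62 TPM), and 4 samples had more than 3. Of the 8 samples above 0, 5 were Kdm5b zygotes, 2 Ctrl water 2C samples and 1 a Kdm5b 2C sample. Ring1 failed the filter on low counts in every comparison and was not tested, and no fold change is given. Without that filter Ring1 passed between the Ctrl water stages (edgeR adjusted p = 0.0472), on 3 fragments in the 9 2C samples together against 0 in the 10 zygotes, which is within the limit that a count of 0 allows. Thus, Rnf2 was the PRC1 ligase whose RNA was measured at these stages.

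Between Ctrl water zygotes and Ctrl water 2C samples, the subunits of PRC2 did not move together. Suz12 rose, Eed and Jarid2 fell, and Ezh1 and Ezh2 did not pass the test. Rnf2 and Kdm6a rose, and Kdm6b did not pass. Of the 8 genes tested, 3 were higher and 2 lower at an adjusted p under 0.05 (edgeR quasi-likelihood test, Benjamini-Hochberg adjustment), when 52.2% of all 11968 genes tested were called, 26.8% higher and 25.4% lower. The share of members called is thus near that of all genes. No member passed an absolute log2 fold change of 1, which 22.2% of all genes did. The median log2 fold change was -0.04 over the 8 genes and 0.02 over all genes. Whether fewer or more RNA molecules per embryo lie behind a relative difference cannot be told apart here.

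Suz12 RNA, for the scaffold of PRC2, was at 516, 571 and 659 TPM (lowest, median and highest) in Ctrl water zygotes and at 709, 1020 and 1155 TPM in Ctrl water 2C samples. All 9 2C samples were above the highest zygote. The fitted difference was 1.83-fold (95% CI 1.63 to 2.06, log2 0.87, SE 0.08), with an adjusted p of 2.27e-09 in edgeR. Eed RNA, for the subunit that binds the methylated histone tail, was at 322, 351 and 378 TPM in Ctrl water zygotes and at 163, 223 and 306 TPM in 2C samples. Here all 9 2C samples were below the lowest zygote. The fitted log2 fold change was -0.53 (SE 0.11, edgeR adjusted p = 0.000208). Suz12 and Eed were the 2 of 8 members tested whose TPM ranges did not overlap between these groups, where those of 17.8% of all genes tested did not.

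Jarid2, the accessory subunit, had 101, 121 and 130 TPM in Ctrl water zygotes and 61.7, 77.3 and 116 TPM in 2C samples. It was below the lowest zygote in 8 of 9 2C samples, and its log2 fold change was -0.45 (SE 0.09, edgeR adjusted p = 0.000217). Ezh2, the main catalytic subunit by RNA level, had 688, 772 and 879 TPM in zygotes and 453, 653 and 953 TPM in 2C samples. The 2C samples lay on both sides of the zygotes, 6 of 9 below the lowest and 2 above the highest. Its log2 fold change was -0.16 (95% CI -0.40 to 0.08, edgeR adjusted p = 0.254). With only the 6 Ctrl water 2C samples of index strip 12 (below), 3 of them pooled, it was -0.41 with an edgeR adjusted p of 0.00076. In that fit 7092 of 12634 genes were called. The 3 Ctrl water 2C samples of strip 11 had a mean Ezh2 level of 852 TPM, above the zygote mean of 786 TPM, and were not fitted alone. Ezh1 had 82.6, 93.1 and 107 TPM in zygotes and 64.9, 86.2 and 125 TPM in 2C samples, and its log2 fold change was 0.04 (95% CI -0.16 to 0.24, edgeR adjusted p = 0.733).

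The PRC1 ligase gene Rnf2 had 171, 204 and 251 TPM in Ctrl water zygotes and 229, 259 and 409 TPM in Ctrl water 2C samples. All 9 2C samples were above the zygote mean and 5 above the highest zygote. Its log2 fold change was 0.47 (SE 0.10, edgeR adjusted p = 0.000442). Kdm6a, the X-linked demethylase gene, had 157, 182 and 209 TPM in zygotes and 166, 208 and 248 TPM in 2C samples. The groups overlapped, with 8 of 9 2C samples above the zygote mean, and the log2 fold change was 0.30 (SE 0.08, edgeR adjusted p = 0.00436). Without the filter on low counts it was 0.20 with an adjusted p of 0.078. Kdm6b had 293, 308 and 366 TPM in zygotes and 179, 272 and 417 TPM in 2C samples, and its log2 fold change was -0.12 (95% CI -0.35 to 0.11, edgeR adjusted p = 0.383). The 2C samples varied more than the zygotes, with a coefficient of variation of 26.1% against 7.8% for Kdm6b and 27.0% against 7.7% for Ezh2.

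The Kdm5b-injected embryos, which share no sample with the water-injected ones, gave 3 members higher and 3 lower between Kdm5b zygotes and Kdm5b 2C samples, where 58.7% of 12390 genes were called, 29.3% higher and 29.5% lower. No member passed an absolute log2 fold change of 1, which 26.5% of all genes did. Eed was close to it, and passed it at -1.05 without the filter on low counts and without either of Kdm5b 2C replicates 2 and 3, at -1.10 and -1.06. The median log2 fold change was 0.10 over the 8 genes and 0.01 over all genes. Suz12 was at 503, 591 and 620 TPM in Kdm5b zygotes and at 849, 1011 and 1234 TPM in Kdm5b 2C samples. Its log2 fold change was 0.93 (SE 0.09, edgeR adjusted p = 1.97e-09). Eed was at 327, 351 and 403 TPM in Kdm5b zygotes and at 125, 154 and 225 TPM in Kdm5b 2C samples, a log2 fold change of -0.98 (SE 0.11, edgeR adjusted p = 4.96e-08). The groups did not overlap for either gene.

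Ezh2 passed the test in the Kdm5b-injected embryos. It was at 591, 716 and 811 TPM in Kdm5b zygotes and at 349, 471 and 518 TPM in Kdm5b 2C samples, all 6 of which were below the lowest zygote. The log2 fold change was -0.50 (SE 0.09, edgeR adjusted p = 6.47e-05). Jarid2 was at 105, 120 and 143 TPM and then at 62.2, 68.9 and 79.8 TPM (log2 fold change -0.67, SE 0.08, edgeR adjusted p = 1.79e-07). Rnf2 was at 201, 218 and 229 TPM and then at 255, 290 and 329 TPM (log2 fold change 0.54, SE 0.07, edgeR adjusted p = 2.55e-07). The groups did not overlap for either gene here as well. Thus, the groups did not overlap for 5 of the 8 members tested, where they did not for 28.8% of all genes tested. The members were chosen with earlier results known, so these shares stand side by side without a test. The groups overlapped for Kdm6a, at 152, 173 and 190 TPM and at 158, 212 and 222 TPM, and its log2 fold change was 0.34 (SE 0.09, edgeR adjusted p = 0.00204). Ezh1 had a log2 fold change of 0.14 (95% CI -0.07 to 0.35) and Kdm6b of 0.06 (95% CI -0.13 to 0.24), and neither passed.

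**Figure D2:**
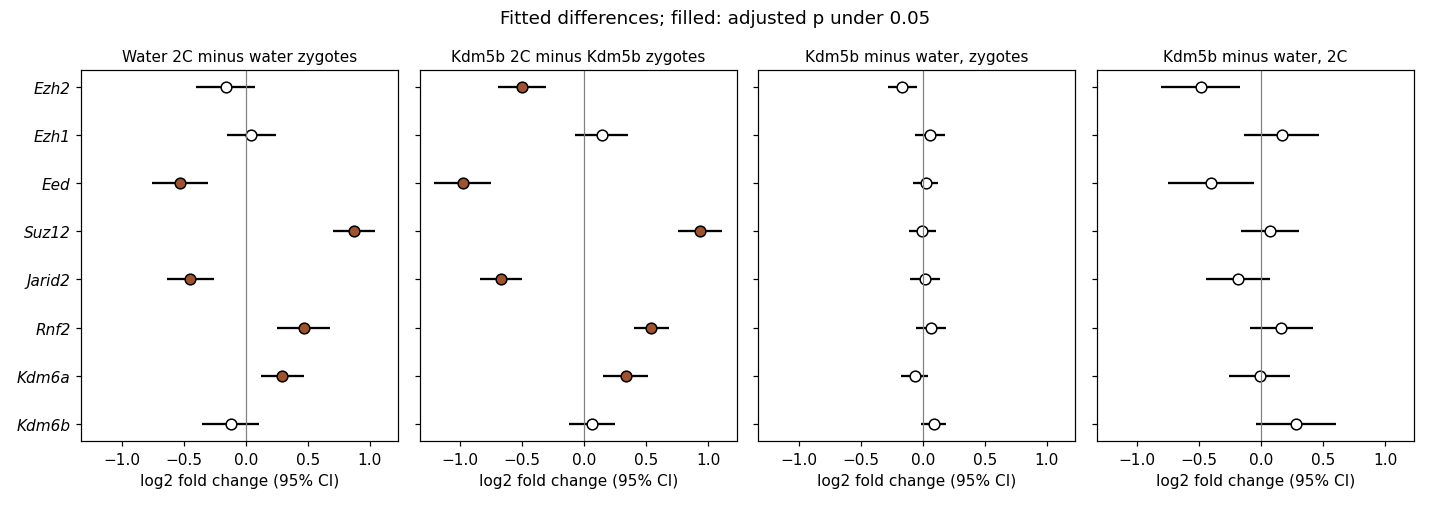
Fitted log2 fold change (horizontal axes, with 95% confidence interval) of the 8 tested genes in 4 comparisons, filled where the adjusted p was under 0.05. Suz12, Rnf2 and Kdm6a were to the right of 0 and Eed and Jarid2 to the left in both comparisons between stages, and no gene was filled in the 2 comparisons between injections.

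Kdm5b-yfp mRNA did not change a member past the test in zygotes. Of the 8 genes tested, 0 were called at an adjusted p under 0.05 in edgeR, and 1 had an unadjusted p under 0.05. Over all 11933 genes 0.134% were called, so that few genes of any kind passed. DESeq2 likewise called 0 of the members. Ezh2 had the smallest p. It was at 688, 772 and 879 TPM in Ctrl water zygotes and at 591, 716 and 811 TPM in Kdm5b zygotes, and the groups overlapped. Its log2 fold change was -0.17 (95% CI -0.28 to -0.05) with an unadjusted p of 0.00775 and an adjusted p of 0.307, and 9 of 10 Kdm5b zygotes were below the Ctrl water mean. The other 7 genes had log2 fold changes between -0.07 (Kdm6a) and 0.09 (Kdm6b). The interval was -0.08 to 0.12 for Eed and -0.11 to 0.10 for Suz12.

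In 2C samples 0 of 8 members were called as well, and 2 had an unadjusted p under 0.05, where 0.0245% of 12244 genes were called. Ezh2 was at 453, 653 and 953 TPM in Ctrl water 2C samples and at 349, 471 and 518 TPM in Kdm5b 2C samples. All 6 Kdm5b samples were below the Ctrl water mean, and 2 were below the lowest Ctrl water sample. The log2 fold change of Ezh2 was -0.49 (95% CI -0.81 to -0.17, edgeR unadjusted p = 0.0046, adjusted p = 0.32). Eed was at 163, 223 and 306 TPM and at 125, 154 and 225 TPM, with 6 of 6 Kdm5b samples below the Ctrl water mean and 3 below the lowest. Its log2 fold change was -0.41 (95% CI -0.76 to -0.06, edgeR unadjusted p = 0.0239, adjusted p = 0.426). The intervals of the other members all held 0. Kdm6b had 0.28 (95% CI -0.04 to 0.60), Jarid2 -0.19 (95% CI -0.45 to 0.07), Ezh1 0.16 (95% CI -0.14 to 0.47), Rnf2 0.16 (95% CI -0.09 to 0.41), Suz12 0.07 (95% CI -0.17 to 0.31) and Kdm6a -0.01 (95% CI -0.26 to 0.23).

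These 2 values of Ezh2 and Eed moved with the library index. The index numbers in the sample names fall into strips of 8, and strip 11 held 3 Ctrl water and 5 Kdm5b 2C samples, while strip 12 held 6 and 1. The strips were inferred from those numbers, and the labels do not name them as a batch. In strip 11, Ezh2 was at 674, 953 and 930 TPM in the Ctrl water samples and at 477, 422, 518, 511 and 465 TPM in the Kdm5b samples. Eed was at 273, 271 and 306 TPM in the same Ctrl water samples and at 166, 225, 213, 143 and 135 TPM in the Kdm5b samples. Within strip 11 the groups did not overlap for either gene. The share of all genes that separate between these 3 and 5 samples was not computed. Both genes had been singled out by their unadjusted p in the same 2C samples, so the separation is no independent support. In strip 12, the 6 Ctrl water samples had 453 to 702 TPM of Ezh2 and the single Kdm5b sample 349 TPM, and for Eed they had 163 to 284 TPM and 125 TPM. Thus, both genes were lower in the Ctrl water samples of strip 12 than of strip 11 by their means, 567 against 852 TPM for Ezh2 and 202 against 283 TPM for Eed. All 3 pooled Ctrl water samples were in strip 12. Their Ezh2 levels were 533, 702 and 555 TPM, against 653, 504 and 453 TPM in the 3 single embryos of that strip. Their Eed levels were 163, 223 and 193 TPM, against 284, 168 and 178 TPM.

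With the strip as a covariate, the log2 fold change of Ezh2 was -0.74 (SE 0.13, edgeR adjusted p = 0.00723) and that of Eed -0.64 (SE 0.16, edgeR adjusted p = 0.0419), so that both passed. Within strip 11 alone, Ezh2 passed at -0.77 (edgeR adjusted p = 0.0323) and Eed did not at -0.63 (adjusted p = 0.135). In 1 fit over all 35 samples Ezh2 passed at -0.50 (edgeR adjusted p = 0.0145) and Eed at -0.42 (adjusted p = 0.0447). With single intact embryos only they were -0.57 and -0.46, with adjusted p of 0.464 and 0.571. The calls on these 2 genes therefore depended on the model, and the sign did not in these fits. With the strip as a covariate 253 of 12244 genes were called in all, against 3 without it. In strip 11 alone 111 of 12426 genes were called, and in 1 fit over all 35 samples 528 of 13778.

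**Figure D3:**
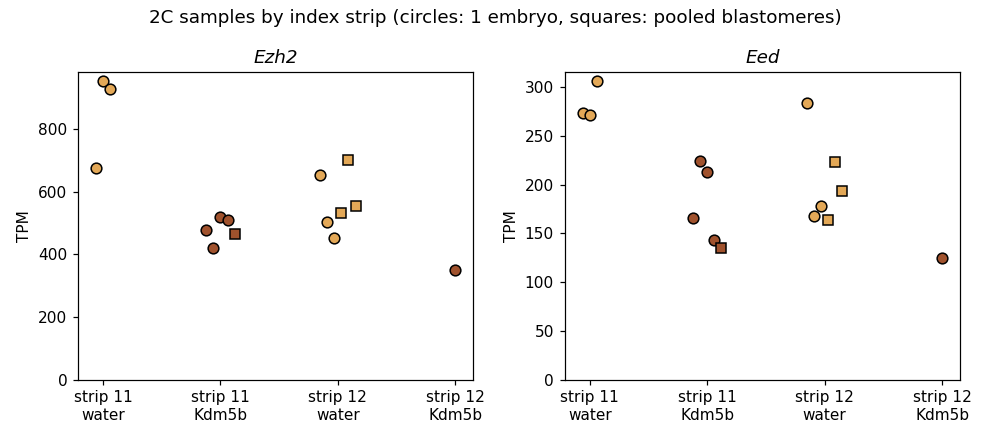
Ezh2 and Eed in the 2C samples (vertical axes, TPM from 0), by index strip and injection. Circles are single embryos and squares are pooled blastomeres. In strip 11 the Ctrl water samples, at 674 to 953 TPM for Ezh2 and 271 to 306 TPM for Eed, were above all Kdm5b samples. The share of all genes with such a separation was not computed.

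A fit over all 35 samples with an interaction term asked whether Kdm5b-yfp mRNA acted differently at the 2 stages. Of the 8 members 0 passed, where 0.109% of 13778 genes did, and 2 had an unadjusted p under 0.05. Eed had an interaction of -0.43 on the log2 scale (SE 0.16, edgeR unadjusted p = 0.0104, adjusted p = 0.346) and Ezh2 of -0.32 (SE 0.16, unadjusted p = 0.0492, adjusted p = 0.548). With the strip as a covariate both passed, Eed at -0.67 (edgeR adjusted p = 0.00909) and Ezh2 at -0.58 (adjusted p = 0.0152). In that fit 342 of 13778 genes were called. The 4 comparisons between groups share samples with one another, and the interaction uses them all. The mean Kdm5b share of counts also differed between the injected groups, at 5.11% in zygotes and 11.9% in 2C samples. The interaction thus cannot tell stage apart from that share, freezing or library day.

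Within the injected groups, the slope of each gene on the log2 Kdm5b share of counts asked whether samples with a higher share differed. The share is relative to the other RNA of a sample and is not the amount injected. No member passed in either stage, and 0% of all genes did. In Kdm5b zygotes 1 member had an unadjusted p under 0.05, Ezh2 at -0.16 per doubling of the share (SE 0.06, edgeR unadjusted p = 0.0133, adjusted p = 0.999). In Kdm5b 2C samples 3 members did. Ezh1 had a slope of -0.69 (SE 0.22, edgeR adjusted p = 0.507), Kdm6b of -0.56 (SE 0.19, adjusted p = 0.545) and Suz12 of 0.46 (SE 0.17, adjusted p = 0.564) over 6 samples. Replicate 6, at a share of 15.6%, was a pool of 3 blastomeres. The slope of Ezh2 there was 0.31, opposite in sign to that in zygotes.

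The ratio of 2 paralogs within a sample does not depend on how libraries are scaled. Ezh2 had a median of 8.27 times the level of Ezh1 in Ctrl water zygotes (lowest 7.15, highest 10.6) and 7.42 times in Kdm5b zygotes (5.29 to 8.30). In 2C samples it had 6.58 times in Ctrl water (4.05 to 11.6) and 5.07 times in Kdm5b samples (2.65 to 6.48). Ezh2 was thus above Ezh1 in every sample. Of 12 tests of ratios, 1 passed after Benjamini-Hochberg adjustment. The mean log2 ratio of Ezh1 to Ezh2 was -2.21 in Kdm5b 2C samples and -2.84 in Kdm5b zygotes, a difference of 0.63 (two-sided exact permutation test, p = 0.00275, adjusted p = 0.033), with all 6 2C samples above the zygote mean. By medians the difference was 0.54 with an adjusted p of 0.0824. Between Ctrl water stages the difference of means was 0.23 (two-sided exact permutation test, adjusted p = 0.254), and 6 of 9 2C samples were above the zygote mean. Between the injections it was 0.23 in zygotes (two-sided permutation test, adjusted p = 0.0792) and 0.62 in 2C samples (two-sided exact permutation test, adjusted p = 0.0911).

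Kdm6b was above Kdm6a in all zygotes. The ratio of Kdm6b to Kdm6a had a median of 1.71 in Ctrl water zygotes (1.47 to 2.25) and 1.94 in Kdm5b zygotes (1.51 to 2.30). In Ctrl water 2C samples it was 1.26 (0.73 to 2.51), so that either gene could be the higher one, and in Kdm5b 2C samples it was 1.53 (1.15 to 2.29). The difference of means between the Ctrl water stages was -0.44 on the log2 scale (two-sided exact permutation test, p = 0.0264, adjusted p = 0.0792), with 8 of 9 2C samples below the zygote mean, and did not pass. The ratio of Ring1 to Rnf2 was set mainly by the pseudocount of 0.5, since most Ring1 counts were 0, and none of its 4 tests passed.

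**Figure D4:**
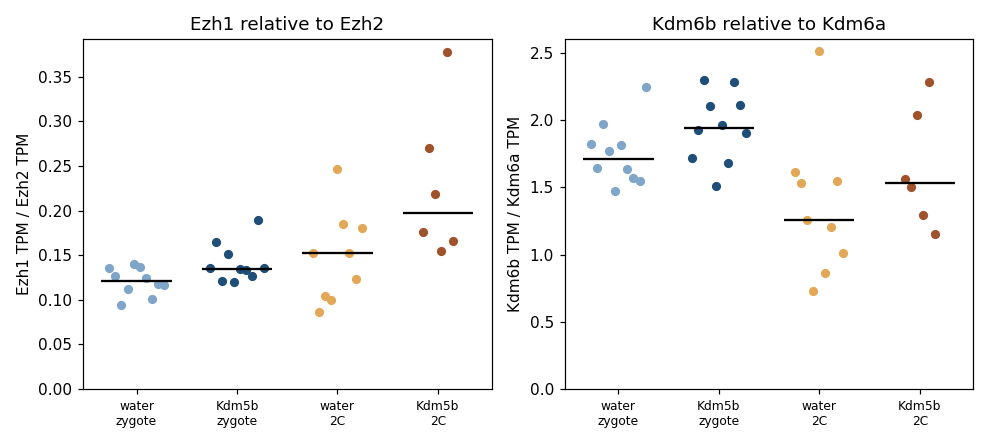
Ratio of TPM within each sample (vertical axes, linear from 0) of Ezh1 to Ezh2 and of Kdm6b to Kdm6a in the 4 groups. Points are samples and lines group medians, and the median of Ezh1 to Ezh2 was 0.121 in Ctrl water zygotes and 0.197 in Kdm5b 2C samples.

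The other genes of these pathways, 46 in 5 lists, moved in both directions between the stages. In Ctrl water embryos 43 were tested, 20 were higher and 13 lower, and 6 passed an absolute log2 fold change of 1, where 26.8% of all genes tested were higher, 25.4% lower and 22.2% past that fold. In Kdm5b embryos 18 of 43 were higher, 15 lower and 8 past that fold, where the shares over all genes were 29.3%, 29.5% and 26.5%. The lists were chosen with earlier results known, so these shares stand side by side without a test. Between the injections 0 of 43 were called in zygotes and 0 of 44 in 2C samples. Over all genes tested, 0.134% and 0.0245% were called there, so that few genes of any kind passed. The values that follow are log2 fold changes of Ctrl water 2C samples over Ctrl water zygotes, all with an edgeR adjusted p under 0.05 unless stated.

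Among the 9 other PRC2 genes, 4 were higher and 3 lower, with a median of -0.10 against 0.02 over all genes. Phf1, a Polycomb-like subunit, had 0.64 (SE 0.07), Lcor, whose locus also encodes a PRC2 partner, 0.62 (SE 0.11), and Aebp2, the zinc finger subunit, 0.49 (SE 0.08). Epop, a PRC2 cofactor listed as E130012A19Rik, had 1.97 (SE 0.50) at low levels, with medians of 1.51 TPM in Ctrl water zygotes and 5.60 TPM in Ctrl water 2C samples. Mtf2, another Polycomb-like subunit, had -0.72 (SE 0.16), and the histone-binding subunits Rbbp4 and Rbbp7 had -0.68 (SE 0.17) and -0.52 (SE 0.18). Thus, Eed, Jarid2, Mtf2, Rbbp4 and Rbbp7 fell and Suz12, Phf1, Lcor, Aebp2 and Epop rose. Ezhip, an inhibitor of PRC2 listed as AU022751, was at 1063 to 2972 TPM in Ctrl water zygotes and 617 to 3655 TPM in Ctrl water 2C samples, and it did not pass at -0.17 (edgeR adjusted p = 0.568). Between the Kdm5b stages Ezhip was lower, at -0.57 (SE 0.19, edgeR adjusted p = 0.0138). Epop and Ezhip were singled out after their values had been seen.

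Of the 11 canonical PRC1 genes 9 were tested, 3 were higher and 1 lower, with a median of 0.25. Bmi1, the PCGF4 subunit, had 0.98 (SE 0.08), Phc2 0.73 (SE 0.10) and Scmh1 0.26 (SE 0.09). Cbx8, a chromodomain subunit, had -1.46 (SE 0.57) on few counts, at most 49 in a Ctrl water zygote and 17 in a Ctrl water 2C sample. Between the Kdm5b stages Cbx8 had the opposite sign, at 0.74, and did not pass (edgeR adjusted p = 0.122). All 13 variant PRC1 genes were tested, 4 higher and 7 lower, with a median of -0.40. Mga had 1.00 (SE 0.12), Pcgf5 1.75 (SE 0.36) and Pcgf3 0.37 (SE 0.10). Pcgf3 did not pass between the Kdm5b stages, at 0.13 (edgeR adjusted p = 0.283). Pcgf1, the PCGF subunit of the complex with BCOR, had -1.74 (SE 0.14), with a median of 474 TPM in Ctrl water zygotes and 129 TPM in 2C samples and no overlap. Pcgf6 had -1.17 (SE 0.14) and Bcorl1 -0.65 (SE 0.10). Apart from Cbx8 and Pcgf3, the PRC1 genes named here passed in the same direction between the Kdm5b stages.

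Among the 6 genes of H2A deubiquitination, which reverses the PRC1 mark, 4 were higher and 2 lower. Usp16 had 0.40 (SE 0.08), Asxl2 0.62 (SE 0.14) and Asxl3 0.49 (SE 0.15), while Asxl1 had -0.28 (SE 0.09) and Mysm1 -0.37 (SE 0.12). Between the Kdm5b stages Asxl3 did not pass, at 0.17 (edgeR adjusted p = 0.229), and the other genes just named passed in the same direction. Of the 7 genes beside Kdm6a and Kdm6b, which encode further demethylases and subunits of the complexes that hold KDM6A, 6 were tested, 5 were higher and 0 lower, with a median of 0.52. Kmt2c, a methyltransferase of H3K4, had 0.68 (SE 0.06), Ncoa6 0.85 (SE 0.08) and Kdm7a 0.54 (SE 0.08).

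**Figure D5:**
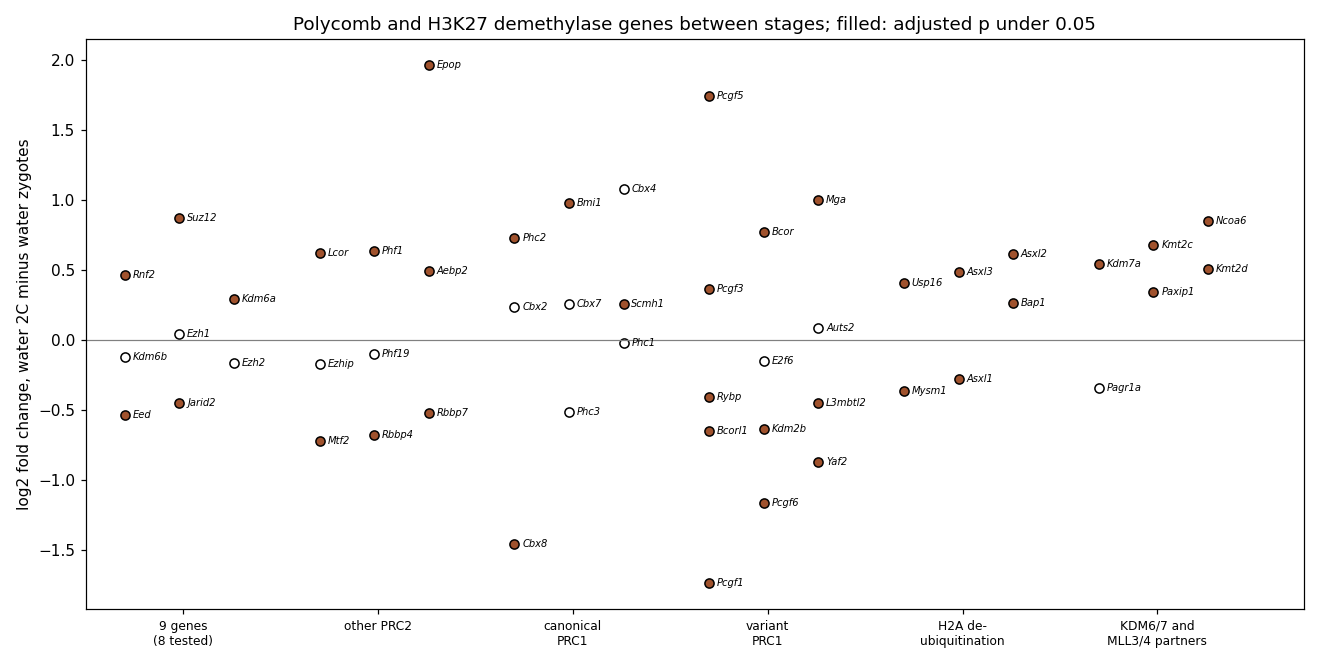
Log2 fold change of Ctrl water 2C samples over Ctrl water zygotes (vertical axis) for the 8 tested members and the 5 lists of related genes, 1 point per gene, filled where the adjusted p was under 0.05. Values ran from -1.74 (Pcgf1) to 1.97, and every list except the last held filled points on both sides of 0.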

How the data were processed

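Total RNA of 35 mouse samples was sequenced, with 1 library each (SMART-Seq Stranded). The authors deposited raw counts of fragments per RefSeq gene on GRCm38. The submitters' processing notes name fastp 0.21.0, STAR 2.7.3a, SAMtools 1.10, featureCounts 1.5.1 and DESeq2 1.30.1. Fragments from near-identical copies could be lost or misplaced in such counts. Of the deposited columns, 0 belonged to no known sample. The deposited table of repeats, with estimated counts by the authors, was not used here.

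The Kdm5b row was removed. The 2 groups of a comparison were then fitted alone (edgeR 4.0.16, R 4.3.3) with TMM factors and genes kept by filterByExpr at a minimum count of 10. The test was quasi-likelihood, and p-values were adjusted after Benjamini and Hochberg over all genes tested. The interaction used all 35 samples. TPM was computed from counts and the deposited exon lengths. Paralog ratios (pseudocount 0.5) were compared with permutation tests in scipy 1.17.1, with 100000 resamples where both groups had 10 samples. DESeq2 1.42.0 was an alternative. Fits were also run on simulated counts that held no separate effect of strip, pooling or day. Those runs do not bear on the calls that depended on the strip. Replicates are separate embryos or pools by their labels. No pair of samples was identical. Confidence intervals are at 95%.

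The members and gene lists were chosen with earlier results of these data known. Besides the 9 members, the text names per list up to 3 higher and 3 lower genes with the smallest p between the Ctrl water stages, and for each member the gene with the most similar profile. Epop and Ezhip were matched through RefSeq synonyms. RefSeq promoter windows covered 8 of 9 members. Alternatives were other size factors, DESeq2, other filters, the Kdm5b row kept, all samples in 1 fit, the replicate number as a block, index strip, intact embryos only, the covariate's scale, other ratio settings, and each sample left out.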

Additional observations from a re-analysis of the deposited data

Results flagged for a closer look

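In 3 of 32 groups of TPM values, 1 sample stood apart from the rest of its group by Dixon's 95% criterion, which chance alone meets in about 1 in 20 groups. Rnf2 was at 409 TPM in Ctrl water 2C replicate 3, where the next sample had 282 TPM. Leaving out each sample of that comparison in turn gave log2 fold changes of Rnf2 between the Ctrl water stages of 0.37 to 0.50, and it passed the test in all 19 fits. Ezh1 was at 112 TPM in Kdm5b zygote replicate 9, where the next had 98.4 TPM. Jarid2 was at 101 TPM in Ctrl water zygote replicate 8, where the next lowest had 114 TPM. What lies behind the 3 values was not tested.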

How the results depend on the processing

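The 5 members called between the Ctrl water stages and the 6 called between the Kdm5b stages kept their number in every fit that left out 1 sample, and 0 were called between the injections in each of those fits. In Kdm5b against Ctrl water 2C samples, 2 of 8 members passed in 1 fit over all 35 samples, where 528 of 13778 genes did. With the index strip as a covariate 2 of 8 passed, where 253 of 12244 genes did. In strip 11 alone 1 of 8 passed, where 111 of 12426 genes did. In the interaction with the strip as a covariate 2 of 8 passed, where 342 of 13778 genes did. Over all genes, 16 were called in zygotes, 105 with DESeq2, 0 in 1 fit over all samples and 5 to 29 without 1 sample. In 2C samples 3 were called, 104 with DESeq2, 9 without a filter, 9 at a mean of at least 50 counts, 528 in 1 fit over all samples, 0 with intact embryos only, 253 with the strip, 111 in strip 11 and 0 to 6 without 1 sample. The interaction called 15, 88 with DESeq2, 342 with the strip and 36 with intact embryos, and the slope in 2C samples 0, and 7 without a filter. Between stages, leaving out a sample gave 5955 to 6644 genes (Ctrl water) and 7036 to 7407 (Kdm5b). The cause of these differences was not tested.

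Signs changed only for values that were not called, and all but that of Kdm6a in strip 11 were near 0. Against Ctrl water 2C samples, Suz12 was -0.0039 with intact embryos, and Kdm6a 0.0080 with intact embryos and 0.14 in strip 11. Between Ctrl water stages Ezh1 was -0.049 without a filter and -0.0025 with strip 12. Kdm6b was -0.013 without a filter between Kdm5b stages. In the interaction, Suz12 was -0.019 with intact embryos and Rnf2 -0.0076 with the strip. Leaving out 1 sample turned Ezh1 (-0.016 to 0.092, Ctrl water stages), Jarid2 (-0.010 to 0.038) and Suz12 (-0.024 to 0.021) in zygotes, Kdm6a (-0.063 to 0.050) and Suz12 (-0.026 to 0.12) in 2C samples, and Kdm6b (-0.046 to 0.10, Kdm5b stages). By medians, Ezh1 to Ezh2 differed by 0.54 between Kdm5b stages (adjusted p = 0.0824), and Ring1 to Rnf2 by -0.032 between injections in 2C samples.

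Samples with the same replicate number did not deviate together (correlations from -0.18 to 0.10). The labels do not name these numbers as a pairing, and low correlations cannot show how samples were collected. With the replicate number as a block, 0, 0, 5 and 6 members were called in zygotes, 2C samples, Ctrl water stages and Kdm5b stages, Kdm6a was 0.051 between the injections in 2C samples, and 19 genes were called there. Eed was -1.002 between the Kdm5b stages under the block, past a fold of 1 on the log2 scale. Without a filter on low counts, Kdm6a no longer passed between the Ctrl water stages (adjusted p = 0.078) and Ring1 did, on 3 fragments. The depth limits Ring1 alone among the members.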

Other observations

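Genes known for silencing by maternal H3K27me3 were mostly low. Of 16 such imprinted genes, 9 were tested between the Ctrl water stages, and 4 were higher and 0 lower in edgeR. Over all genes tested, 26.8% were higher and 25.4% lower, so 4 of 9 called is near the 52.2% called in either direction. All 4 passed an absolute log2 fold change of 1, which 22.2% of all genes did. The median log2 fold change was 1.06 over the 9 genes and 0.02 over all genes. The list was chosen with earlier results known, so these values stand side by side without a test. Jade1 was at 0 to 2.98 TPM in Ctrl water zygotes and 1.53 to 19.0 TPM in Ctrl water 2C samples, a log2 fold change of 3.42 (SE 0.55, edgeR adjusted p = 1.01e-05). Tle3 was at 0 to 1.23 TPM and 0.819 to 46.4 TPM, a log2 fold change of 4.43 (SE 0.79, edgeR adjusted p = 3.69e-05). Bbx was at 1.74 to 10.3 TPM and 6.34 to 24.0 TPM, a log2 fold change of 1.33 (SE 0.27, edgeR adjusted p = 0.000155). Between the injections 0 of 8 in zygotes and 0 of 9 in 2C samples were called, where 0.134% and 0.0245% of all genes tested were.

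Of 39 Hox genes, a class that Polycomb complexes silence in many cells, 6 were tested between the Ctrl water stages. The median was under 1 TPM for 34 of the 39 in Ctrl water zygotes and for 33 in Ctrl water 2C samples. Of the 6 tested, 2 were higher and 0 lower, where 26.8% of all genes tested were higher and 25.4% lower. Hoxa7, at 36.6 to 89.1 TPM in Ctrl water zygotes and 52.8 to 168 TPM in Ctrl water 2C samples, had a log2 fold change of 0.65 (SE 0.19, edgeR adjusted p = 0.00561). Between the injections 0 of 6 in zygotes and 0 of 8 in 2C samples were called, where 0.134% and 0.0245% of all genes tested were.

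The gene whose 4 group means were most like those of each member, by the root mean square difference of centred log2 CPM among 13777 genes, was Aldoa for Ezh2 (0.0091), Cgn for Ezh1 (0.0103), Gm10324 for Eed (0.0097), Sptbn1 for Suz12 (0.0104), Cabp1 for Jarid2 (0.0138), Elavl2 for Rnf2 (0.0072), Tspan31 for Kdm6a (0.0092) and Nr1d1 for Kdm6b (0.0110). With 4 points and so many genes, close matches arise for any profile.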
